A study of Mus musculus with 6 samples.

Results

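Genes of MHC class I antigen presentation were followed in RNA-seq of primary colon tumor cells that did (PID+) or did not (PID-) express an inhibitor of Group I Paks. The 10 genes were chosen by name and all 10 had values, among 21959 genes that passed CuffDiff's quality status in both conditions. H2-K1 and H2-D1 encode the classical class I heavy chains and B2m their light chain. Tap1 and Tap2 form the peptide transporter of the endoplasmic reticulum, and Tapbp (tapasin) holds that transporter to empty class I molecules. Psmb8, Psmb9 and Psmb10 are the catalytic subunits of the immunoproteasome, and Nlrc5 is the class I transactivator.

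Nearly all nucleated cells use this pathway to show fragments of their own proteins to CD8 T cells. Proteasomes cut the proteins, the transporter moves the peptides into the endoplasmic reticulum, and tapasin with its partner chaperones loads them onto a heavy chain bound to B2m. Interferons raise many of the genes together, in part through Nlrc5, and intestinal epithelial cells and colorectal tumors are known to vary in how much of the pathway they express.

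PID+ cells came from tumors of CDX2P-NLS-Cre;APC^Δ/+;ROSA26-PID mice and PID- cells from tumors of CDX2P-NLS-Cre;APC^Δ/+ littermates. In both genotypes the CDX2 promoter drives Cre mainly in the epithelium of the large and distal small intestine, where it deletes a floxed Apc exon on 1 allele. The PID+ genotype adds a Rosa26 knock-in allele in which Cre removes a stop cassette ahead of a GST-tagged human Pak1 inhibitor domain, which carries a substitution that abolishes FMR1 binding and is followed by IRES-eGFP. The mice were followed for 8 months, and 3 primary cell lines were established per genotype and cultured without a further treatment named for the RNA-seq. The parental Cre and Apc mice were C57BL6/J, whereas the knock-in was made in G4 embryonic stem cells. The labels list 3 mice per condition (1, 2 and 3 for PID-, 4, 7 and 26 for PID+) and call the PID- samples normal, but the methods describe tumor-derived cells and name the 3 read sets of a condition replicated sequencing runs. The study's own numbers for its lines match the labels for PID+ but not for PID-, so which PID- lines were sequenced is uncertain. These sets were merged before quantification. Each gene therefore has 1 pooled FPKM (fragments scaled by transcript length and by the number mapped) per condition, with the interval that CuffDiff deposited beside it. Replicates therefore cannot be compared, and p-values were not calculated.

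The cells had abundant RNA of keratins and other epithelial genes and almost none of immune cells. Of 8 epithelial markers, the keratin gene Krt18 was the most abundant in PID+ cells, at an FPKM of 2843, and Krt19 in PID- cells, at 2073. Vil1, a marker of the intestinal brush border, was nearly absent, with 0.175 in PID+ and 0.0614 in PID- cells. Of 21 markers of leukocytes, T and NK cells, macrophages and dendritic cells and B cells, 20 had an FPKM below 1 in both conditions, with sums of 0.400 (PID+) and 0.573 (PID-). Cd3e, Cd3d, Cd4, Nkg7, Ncr1 and C1qa were listed at 0 in both conditions. The exception was Cd68, a lysosomal membrane gene that is not restricted to macrophages, with 21.8 in PID+ and 16.8 in PID- cells. Of the epithelial markers 5 (Epcam, Krt18, Cdh1, Krt20 and Krt8) were at least 2-fold higher in PID+ cells. Of all genes that reached an FPKM of 2 in either condition, 6.14% were. With Gapdh set equal between the conditions only 1 marker (Epcam) was, beside 1.45% of all 21959 genes. The number was 3 with equal sums of FPKM and 4 with chromosome medians subtracted. The intestinal factor Cdx2 was lower (log2 change -2.55). The median log2 change of the fibroblast markers was negative under each scaling tried (-1.31). Their 8 genes summed to 3.005 in PID+ against 34.1 in PID- cells, 4 of them (Col1a2, Col3a1, Col1a1 and Dcn) at least 2-fold lower. Of all genes that reached an FPKM of 2 in either condition, 7.05% were 2-fold lower. The most abundant fibroblast markers were Col1a1 at 2.32 in PID+ and Col1a2 at 11.9 in PID- cells. Lum was listed at 0 in both, and Dcn and Thy1 in PID+ cells. Of 4 endothelial markers, Kdr had the highest FPKM, 3.33 in PID+ and 1.01 in PID- cells (log2 change 1.11, and 0.76 with Gapdh set equal). Pecam1, Cdh5 and Tek were each below 1. In pooled bulk RNA, fewer cells of a type and less RNA per cell cannot be told apart, and the part of the fibroblast difference in the values of the class I genes was not tested.

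As a group, the class I genes did not move in 1 direction. Changes are given as log2((FPKM in PID+ + 1)/(FPKM in PID- + 1)), on which the pseudocount of 1 makes changes of scarce RNAs look smaller. The log2 change was positive in 6 and negative in 4 of the 10 genes, with a median of 0.11 beside a median of 0 over all 21959 genes. The sign of that median is not stable, since it was -0.04 over the 7 genes that reached an FPKM of 2 in either condition. Only Nlrc5 was 2-fold or more higher in PID+ cells, and only Tap2 was 2-fold or more lower. Both passed 2-fold under a pseudocount of 0.1 and under each of 4 rescalings, and neither had deposited intervals that were apart. The rescalings set the sums, the upper quartiles or Gapdh equal, or subtracted the median log2 change of a gene's chromosome, taken over those genes whose mean FPKM was 5 or more. The rescaling that moved the other genes furthest set Gapdh equal, because Gapdh differed by a ratio of 1.54 (2570 in PID+, 1666 in PID-). It shifted the median log2 change of the 9341 genes whose mean FPKM was 5 or more by -0.60 and turned the median of the 10 class I genes to -0.27.

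These counts were set beside those of all genes. An FPKM of 2 in one condition or the other was reached by 11035 genes, of which 6.14% were 2-fold or more higher and 7.05% 2-fold or more lower. Among the class I genes 7 reached it, 0 of them 2-fold higher and 1, Tap2, 2-fold lower. At 3-fold the shares of all these genes were 2.08% higher and 3.42% lower, and no class I gene was counted in either direction. Deposited intervals were apart in 0.362% of these genes upward and 1.07% downward, and in no class I gene. Nlrc5, Psmb8 and Psmb9 stayed below an FPKM of 2. With the minimum at an FPKM of 1, a limit added after the values were seen, 6.16% of 11785 genes were 2-fold higher and 7.03% lower. Of the class I genes 9 reached that minimum, Nlrc5 through its PID+ value, with 1 counted in each direction. With so few genes a single one already exceeds these percentages, so the counts show nothing particular to the group.

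**Figure D1:**
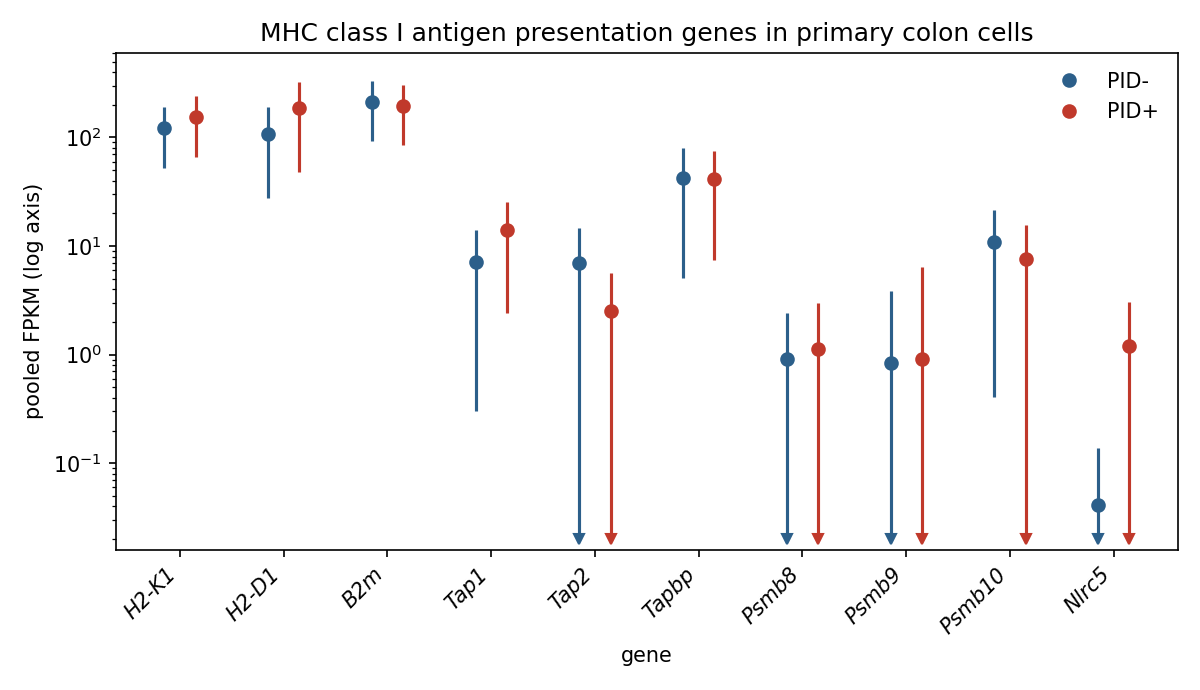
Pooled FPKM (log axis) of the 10 class I genes in PID- (blue) and PID+ (red) cells. Points are the deposited values and lines CuffDiff's intervals, with an arrowhead where the lower bound is 0. B2m, H2-D1 and H2-K1 lie above 100 in both conditions, Nlrc5, Psmb8 and Psmb9 near or below 1, and the intervals of the conditions overlap for each gene.

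The heavy and light chain RNAs were the most abundant of the group in both conditions. In PID+ cells the order of levels was B2m, H2-D1, H2-K1, Tapbp, Tap1, Psmb10, Tap2, Nlrc5, Psmb8 and Psmb9. In PID- cells H2-K1 stood above H2-D1, Psmb10 above Tap1, and Nlrc5 was last. In both conditions the interval of each gene overlapped that of the next in this order, so the order of neighbours is not resolved. The interval of Tapbp overlapped those of H2-D1 and H2-K1 and lay below that of B2m.

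H2-D1 (ENSMUSG00000073411.8, chromosome 17 of GRCm38 from 35262730 to 35267499, plus strand) had 185 (47.7 to 323) in PID+ against 109 (27.6 to 190) in PID- cells, each an FPKM with its interval. Its log2 change was 0.77, and it stayed positive but fell to 0.15 with Gapdh set equal. H2-K1 (ENSMUSG00000061232.12, chromosome 17 from 33996017 to 34000347, minus strand) had 153 (65.7 to 240) in PID+ and 121 (51.9 to 191) in PID- cells. Here the log2 change of 0.33 turned to -0.29 with Gapdh set equal. The heavy chain genes thus ranked among the most abundant genes of the cells, above 97.7% (H2-K1) and 98.2% (H2-D1) of all genes in PID+ cells. B2m (ENSMUSG00000060802.8, chromosome 2 from 122147686 to 122153083, plus strand), the light chain that class I heavy chains in general need for stable display at the cell surface, had 194 (84.6 to 303) in PID+ and 211 (92.4 to 329) in PID- cells. Its log2 change of -0.12 was negative under each scaling, down to -0.74 with Gapdh set equal. The summed FPKM of H2-K1 and H2-D1 was 1.75 times that of B2m in PID+ and 1.09 times in PID- cells. A ratio within a condition is not altered when all genes of a condition are scaled by the same factor. No interval was calculated for this ratio, and those of each of these genes overlap between the conditions, so the difference is not resolved.

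Class I genes are a family of near copies, and a single 50-base read cannot always be assigned to 1 of them. Of the distinct 50-base stretches in the coding transcripts of H2-D1, 13.1% also occurred in coding transcripts of other genes, most often H2-Q1 (152 of 2275 stretches). For H2-K1 the share was 6.87%, and H2-D1 held the most of them (109 of 2008 stretches). B2m, Nlrc5, Psmb8, Psmb9 and Psmb10 shared no stretch with another gene in this count. The count leaves out the 212 exonic bases in which Psmb9 and Tap1 overlap on opposite strands. Tap1 and Tap2, which are related transporter subunits, shared 25 stretches with each other, 0.834% and 0.708% of their own. Tapbp shared 2.46%, most often with its neighbour Zbtb22. These shares describe single reads. The labels do not say whether ends were paired and the methods say they were, and a mate can place a read whose own bases are shared, so the part of the fragments that CuffDiff had to divide is unknown and may be smaller. The heavy chain genes also differ in sequence between mouse strains, and the strain makeup of the lines was not analysed here.

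Genes of nonclassical class I molecules and of class I-like proteins showed no common direction. Of 29 listed, 25 had a row, and 8 reached an FPKM of 2 in either condition. The median log2 change of the 25 was -0.04, or -0.34 with Gapdh set equal (8 positive and 14 negative). H2-Q4, a Qa-region class I gene, was the only one at least 2-fold higher with the pseudocount of 1, with 11.7 in PID+ and 4.86 in PID- cells (log2 change 1.12, and 0.58 with Gapdh set equal). It shared 22.6% of its 50-base stretches with other genes, including 67 with H2-D1 and 53 with H2-K1. Hfe, which binds the transferrin receptor, had 0.728 in PID+ and 2.92 in PID- cells (log2 change -1.18, and -0.98 with chromosome medians subtracted). H2-Q1 was also 2-fold lower, but at 0.0413 in PID+ against 1.13 in PID- cells (log2 change -1.03, and -0.97 with chromosome medians subtracted). With a pseudocount of 0.1, which gives more weight to scarce RNAs such as H2-T10 and H2-Bl, 4 were 2-fold higher and 4 lower. Of all 21959 genes, 3.31% were 2-fold higher and 3.77% lower with the pseudocount of 1, and no share was calculated at 0.1. H2-T23, which encodes the Qa-1 molecule read by NK cell receptors, had 14.7 and 17.1, and H2-T22 had 16.3 and 16.7. These genes also share 50-base stretches with other genes, 17.5% of those of H2-T23 and 36.9% of those of H2-T22. For H2-Q1 the share was 22.3%. Procr, the endothelial protein C receptor with a class I-like fold, was the most abundant of the list at 61.0 in PID+ and 32.6 in PID- cells.

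The subunits of the peptide transporter differed in opposite directions. Tap1 (ENSMUSG00000037321.14, chromosome 17 from 34187553 to 34197225, plus strand) had 13.9 (2.42 to 25.5) in PID+ against 7.12 (0.302 to 13.9) in PID- cells. The log2 change was 0.88, and it lay between 0.32 and 0.96 under the alternatives. Tap2 (ENSMUSG00000024339.9, chromosome 17 from 34203527 to 34216321, plus strand) had 2.50 (0 to 5.59) in PID+ and 6.96 (0 to 14.6) in PID- cells. The log2 change was -1.18, and it lay between -1.74 and -1.13 under the alternatives. Both intervals of Tap2 reach 0 and overlap, and those of Tap1 overlap as well. In PID- cells the FPKM of Tap1 was 1.02 times that of Tap2, and in PID+ cells 5.57 times. The transporter works as a heterodimer of 1 Tap1 and 1 Tap2 chain, and protein was not measured here. The reads behind these values (read pairs, where both ends were sequenced) could be estimated from the steps in which low FPKM values fall. The step of a single read was 1.38 times larger for PID+ than for PID- cells, so ratios of reads differ from ratios of FPKM. The estimates came to about 7947 in PID+ and 5606 in PID- cells for Tap1, and to 1678 and 6445 for Tap2, if each read came from the longest coding transcript. If they came from the shortest coding transcripts, the estimates fall to 1142 and 806 for Tap1, and to 96 and 369 for Tap2.

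Tapbp (ENSMUSG00000024308.11, chromosome 17 from 33915899 to 33929292, plus strand) had nearly the same FPKM in both conditions, 41.1 (7.38 to 74.8) in PID+ and 42.2 (5.13 to 79.3) in PID- cells. The log2 change was -0.04, and it lay between -0.65 with Gapdh set equal and 0.02 with chromosome medians subtracted. Since 149 of its exonic bases overlap Zbtb22 on the same strand, reads from that stretch belong to neither gene alone. Another list held 14 genes of peptide trimming and loading, all of which reached an FPKM of 2 in either condition. Of these, 0 were at least 2-fold changed, beside 6.14% higher and 7.05% lower of all genes at that FPKM. With so few genes, this count shows nothing particular to the list. The median log2 change was 0.14, or -0.47 with Gapdh set equal, under which all 14 turned or stayed negative. The list was led by Calr (384 in PID+ and 285 in PID- cells) and Hspa5 (384 and 442), chaperones of the endoplasmic reticulum with many clients. Pdia3, the thiol oxidoreductase that pairs with tapasin, had 360 and 292. Erap1, the aminopeptidase that trims peptides to class I length, had 9.49 and 12.0, and Tapbpl, the tapasin-related peptide editor, 7.11 and 5.76. Psme1 and Psme2, which encode the interferon-inducible cap of the proteasome, had 70.3 and 78.2 in PID+ and 56.5 and 64.7 in PID- cells.

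Of the immunoproteasome subunits, Psmb8 and Psmb9 were scarce in both conditions and Psmb10 was less so, and the constitutive subunits they replace were plentiful. Psmb8 (ENSMUSG00000024338.11, chromosome 17 from 34197721 to 34201454, plus strand) had 1.13 (0 to 2.96) in PID+ against 0.913 (0 to 2.40) in PID- cells. Psmb9 (ENSMUSG00000096727.1, chromosome 17 from 34181987 to 34187764, minus strand) had 0.908 (0 to 6.39) in PID+ and 0.833 (0 to 3.89) in PID- cells. Their log2 changes of 0.15 and 0.06 turned to -0.18 and -0.26 with Gapdh set equal. Psmb10 (ENSMUSG00000031897.8, chromosome 8 from 105935735 to 105938444, minus strand) was the most abundant of the 3, with 7.55 (0 to 15.7) in PID+ and 10.9 (0.406 to 21.4) in PID- cells. The log2 change was -0.48, and -1.06 with Gapdh set equal, which passes 2-fold. Psmb8 and Psmb9 lay near the middle of all genes, those at 0 included. Psmb9 stood above 48.4% of genes in PID+ and 47.4% in PID- cells, and Psmb8 above 49.4% and 47.9%. Psmb10 stood higher, above 63.0% and 67.7%.

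Each immunoproteasome subunit takes the place of 1 constitutive subunit, so their FPKM can be compared as pairs. Psmb5, the counterpart of Psmb8, had 127 in PID+ and 94.4 in PID- cells, 113 and 103 times the FPKM of Psmb8. Psmb6, the counterpart of Psmb9, had 145 and 134, 160 and 161 times the FPKM of Psmb9. Psmb7, the counterpart of Psmb10, had 157 and 134, 20.8 and 12.3 times the FPKM of Psmb10. With the pseudocount of 1, the log2 ratio of Psmb8 to Psmb5 was -5.91 in PID+ and -5.64 in PID- cells, that of Psmb9 to Psmb6 -6.26 and -6.21, and that of Psmb10 to Psmb7 -4.21 and -3.50. Each pair therefore leaned to the constitutive subunit in both conditions, least so for Psmb10 in PID- cells. The intervals of Psmb10 overlap between the conditions. Those of Psmb7 do too (45.2 to 269 in PID+ and 33.6 to 234 in PID- cells), so the difference in this ratio is not resolved. The 3 constitutive catalytic genes had a median log2 change of 0.23, and the 12 other genes of the 20S core and its assembly, led by Psma3 (221 in PID+ and 204 in PID- cells), one of 0.12. None of these 15 genes was 2-fold changed, beside 6.14% higher and 7.05% lower of all genes at an FPKM of 2 in either condition. Both medians were negative with Gapdh set equal (-0.39 and -0.51).

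Nlrc5 had the largest ratio between the conditions of the group, at a very low level. Nlrc5 (ENSMUSG00000074151.9, chromosome 8 from 94434356 to 94527272, plus strand) had 1.19 (0 to 3.08) in PID+ against 0.0416 (0 to 0.139) in PID- cells. The raw ratio was 28.6. The log2 change was 1.07 with the pseudocount of 1 and 3.19 with a pseudocount of 0.1, and between 1.04 and 1.20 under the rescalings. The PID+ value lay above the whole PID- interval, but the lower bound in PID+ cells was 0, so the intervals overlap. The estimated reads were about 1812 in PID+ and 88 in PID- cells for the longest coding transcript, and 376 and 18 for the shortest. How the reads divide among the 3 read sets of each condition cannot be seen in pooled values.

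Nlrc5 binds no DNA by itself and acts at class I promoters together with the RFX complex, NF-Y and CREB or ATF1. Of 8 genes of these partners, each reached an FPKM of 2 in at least 1 condition. None was 2-fold changed, beside 6.14% higher and 7.05% lower of all genes at that FPKM. Their median log2 change was 0.20 and turned to -0.39 with Gapdh set equal. Rfx5 had 9.35 in PID+ and 7.22 in PID- cells, Rfxap 14.2 and 15.7, and Rfxank 2.32 and 1.46. Nfya had 30.3 in PID+ and 18.5 in PID- cells, and Atf1, the most abundant of the 8, had 36.8 and 35.3. Ciita, the related transactivator of class II genes that uses the same partners, was listed at 0 in PID+ and had 0.0105 in PID- cells. The list of class II genes, which includes Ciita and the invariant chain gene Cd74, was close to silent. Of its 11 genes, 10 had an FPKM below 1 in both conditions, and H2-Aa, H2-Eb2, H2-Oa and H2-Ob were listed at 0 in both. The exception was H2-DMb1, with 2.18 in PID+ and 0.618 in PID- cells.

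**Figure D2:**
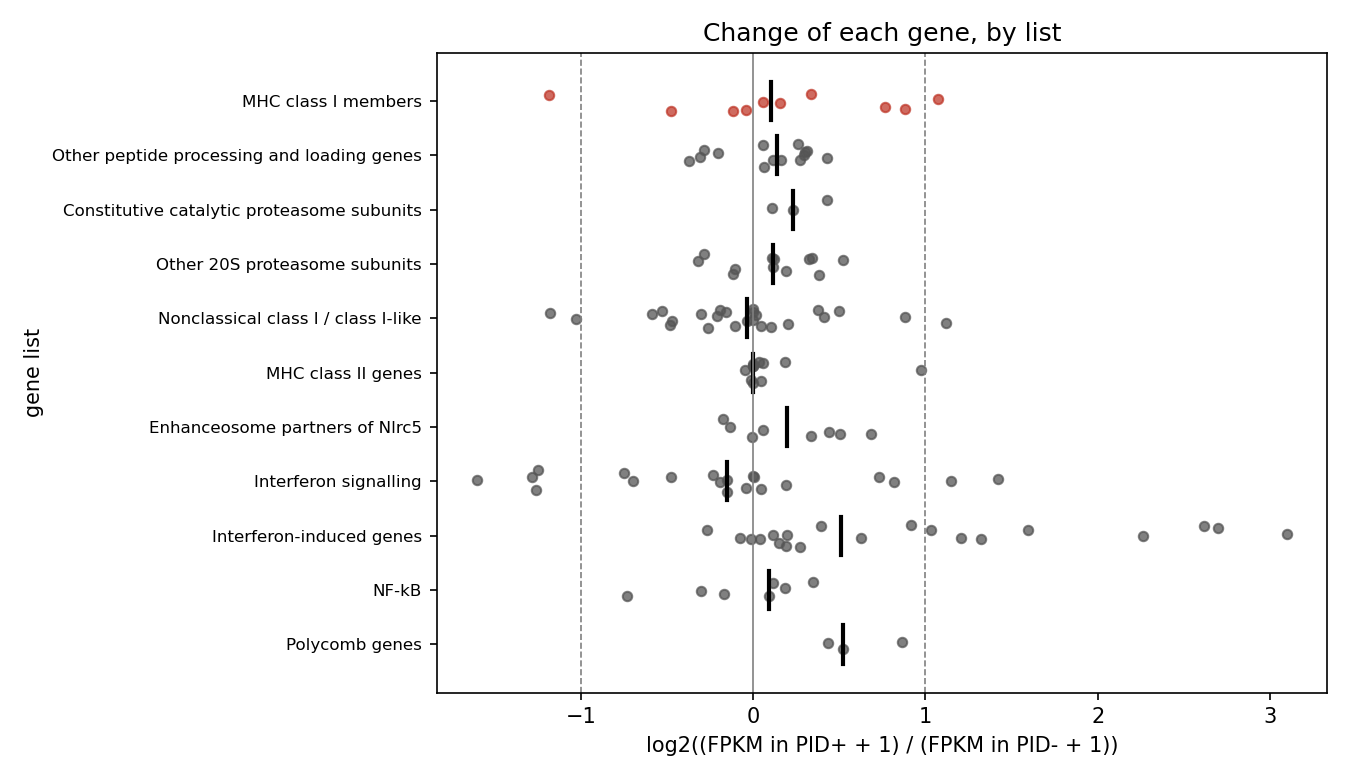
Log2 change between PID+ and PID- cells of each gene, 1 row per list, with the class I genes in red. Points are genes, black bars list medians and dashed lines 2-fold. The 10 class I genes spread on both sides of 0 around a median of 0.11 (-0.27 with Gapdh set equal) and reach 1.07. The interferon-induced genes have a median of 0.51 (0.34 with Gapdh set equal) and reach 3.10. All values are with the pseudocount of 1.

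The genes of interferon signalling upstream of the class I genes moved both ways. Of 20, 2 were 2-fold higher and 4 were 2-fold lower in PID+ cells. The median log2 change was -0.15, or -0.66 with Gapdh set equal. Of all 21959 genes, 3.31% were 2-fold higher and 3.77% lower. An FPKM of 2 in either condition was reached by 16 of the 20, all the 2-fold changed ones among them. Of all genes at that FPKM, 6.14% were higher and 7.05% lower. With Gapdh set equal, 7 of the 20 were 2-fold lower and 0 higher, beside 12.3% and 1.45% of all genes. With chromosome medians subtracted, 2 were lower and 2 higher, a setting for which no share of all genes was calculated. Ifng and Ifnb1, which encode interferons, were listed at 0 in both conditions except for an FPKM of 0.0312 of Ifng in PID- cells. Jak2, a kinase of the interferon gamma receptor, had 23.6 in PID+ and 73.7 in PID- cells (log2 change -1.60), and Socs3, a feedback inhibitor of cytokine receptors, 5.57 and 14.7 (-1.26). The receptor chains Ifngr2 (log2 change -1.28) and Ifnar2 (-1.25) were also lower. They lie on chromosome 16, whose median log2 change was -0.50, and with that median subtracted both were within 2-fold (-0.78 and -0.75). Ifngr1, the ligand-binding chain for interferon gamma and the most abundant gene of the list, had 156 and 174. Irf7 (7.997 in PID+ and 2.36 in PID- cells) and Stat2 (16.6 and 6.97) were the 2 higher genes, with log2 changes of 1.42 and 1.15 that were below 2-fold with Gapdh set equal (0.95 and 0.59). Irf1, which drives class I and immunoproteasome promoters after interferon gamma, had 26.3 in PID+ and 29.2 in PID- cells.

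Interferon-induced genes outside antigen presentation were listed for comparison. This list, like the others, was chosen with earlier results of these data known. Of 20, 8 were at least 2-fold higher in PID+ cells, or 6 with Gapdh set equal, and 0 were lower, with a median log2 change of 0.51. The shares of all genes that were higher are the 3.31% and 1.45% given above. With a pseudocount of 0.1, 11 were higher and the median was 1.16, but no share of all genes was calculated at that pseudocount. Of the 20, 10 reached an FPKM of 2 in either condition. With the pseudocount of 1, 6.14% of all genes at that FPKM were 2-fold higher. In the list, the 2-fold higher ones at that FPKM were Oasl2 (log2 change 3.10), Usp18 (2.70), Oas1a (2.62), Isg15 (2.26), Xaf1 (1.60) and Bst2 (1.20). Ifit1 and Gbp3 passed 2-fold below that level. With Gapdh set equal, Bst2 (0.59) and Gbp3 (0.95) fell below 2-fold, and Gbp3 also with chromosome medians subtracted (0.78). Usp18 was the only 1 of the 20 with intervals apart, 17.5 (4.48 to 30.4) in PID+ and 1.84 (0 to 4.26) in PID- cells. Bst2 was the most abundant, with 79.3 and 33.8. The largest log2 change of the 10 class I genes, that of Nlrc5, was 1.07 with the pseudocount of 1, but its raw ratio of 28.6 was above the 19.6 of Oasl2, the largest of these 20. Whether the lists differ was not tested.

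Of the 10 genes, 7 lie in the MHC region of chromosome 17, within 2.13 Mb between Tapbp and H2-T22. Of the other protein-coding genes there, 73 reached an FPKM of 2 in one condition or the other, with a median log2 change of 0.03. Of these 73, 7 were 2-fold higher and 4 lower, beside 6.14% and 7.05% of all genes at that FPKM. Over the whole chromosome, for which another filter was used (451 genes, mean FPKM 5 or more), the median was -0.06. The higher ones of the 73 included 3 neighbouring Ly6 genes, Ly6g6c (log2 change 2.67), Ly6g6d (1.56) and Ly6g6e (1.34), and Slc44a4 (1.99), a transporter of colon epithelium, all named after their values were seen. The other genes of the region thus changed in both directions without rescaling, and a shift common to the region was not tested. Psmb9, Tap1, Psmb8 and Tap2 form a cluster of 34.3 kb, in which Tap1 and Tap2 have Psmb8 as the one protein-coding gene between them and had log2 changes of 0.88 and -1.18. Tap1 and Psmb9 are transcribed away from each other from a shared promoter interval, and 212 of their annotated exonic bases overlap on opposite strands. The library kit does not mark strand, so reads in that overlap cannot be told apart. Psmb10 and Nlrc5 lie on chromosome 8, with a median log2 change of -0.13, and B2m on chromosome 2, with one of 0.08.

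**Figure D3:**
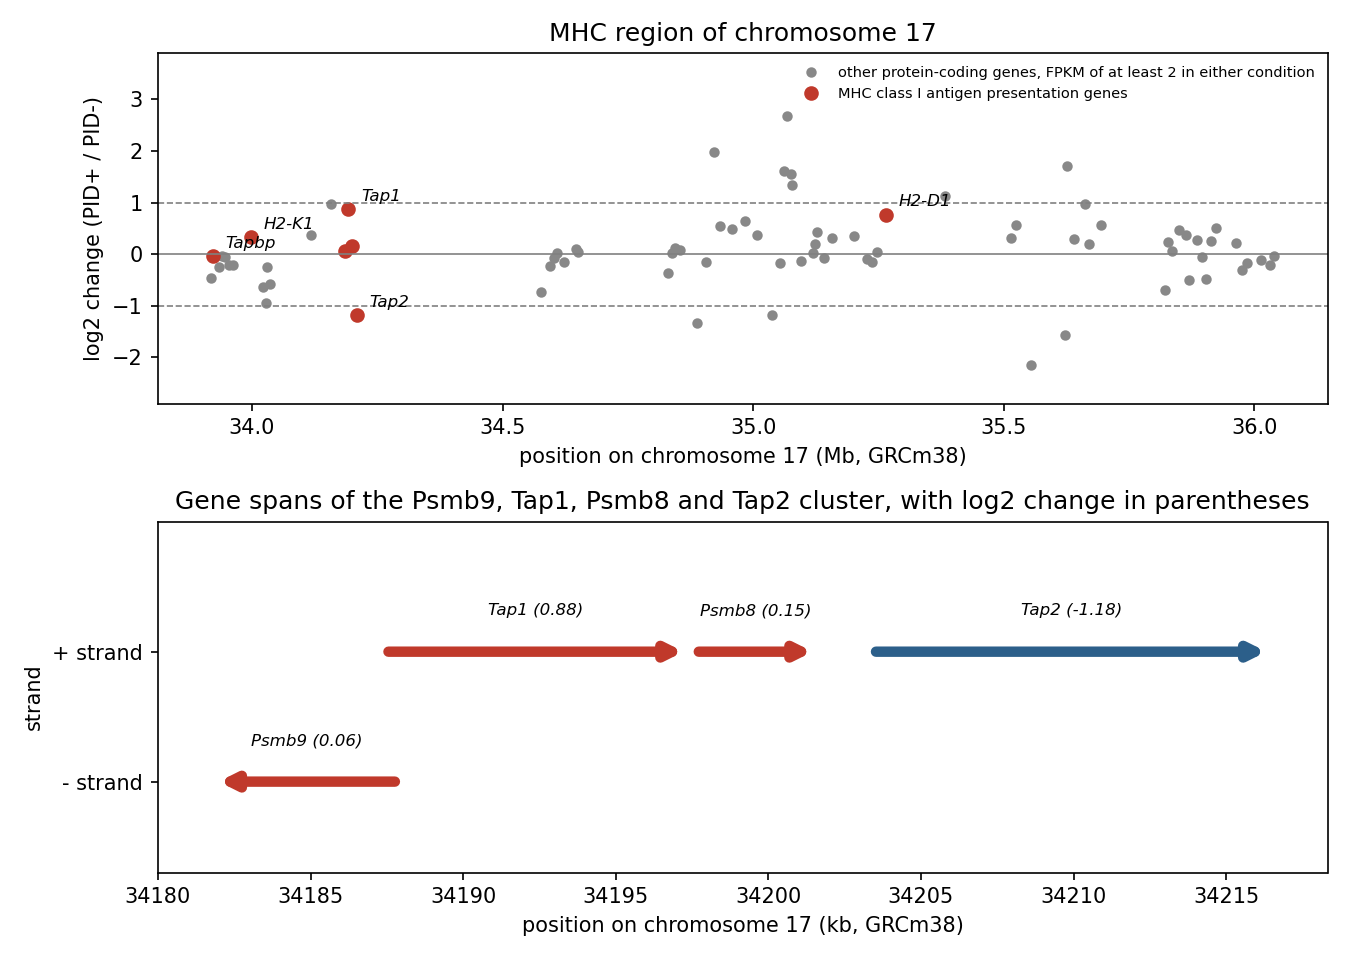
Top, log2 change of genes along the MHC region of chromosome 17 (Mb, GRCm38), class I genes in red and other protein-coding genes that reached an FPKM of 2 in grey, with dashed lines at 2-fold. Bottom, spans and strands of Psmb9, Tap1, Psmb8 and Tap2 (kb), red for positive and blue for negative log2 change, with Tap1 at 0.88 and Tap2 at -1.18. Under equal Gapdh, H2-K1, Psmb8 and Psmb9 turn negative and H2-D1 and Tap1 stay positive. Tapbp turns positive with chromosome medians subtracted.

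The promoters of the heavy and light chains are shown because these RNAs were the most abundant of the group while the FPKM of the transactivator Nlrc5 was near 0 in PID- cells. RefSeq promoters (GRCm38.p6, from 250 bases before to 50 bases after the start) were matched for 8 of the 10 genes, and Tap2 and Nlrc5 had no match. On both strands, 7 motifs were searched, and GAANNGAAA, an interferon response element with 1 base fewer, was added after the sequences had been read. In the promoters of H2-K1 (chr17:34000348-34000527, minus strand, 180 bases) and B2m (chr2:122147507-122147685, plus strand, 179 bases), capitals mark the matches, and both stretches end just before the first exon. The first is intergenic, and the second lies in an intron of Patl2 on the opposite strand.
H2-K1: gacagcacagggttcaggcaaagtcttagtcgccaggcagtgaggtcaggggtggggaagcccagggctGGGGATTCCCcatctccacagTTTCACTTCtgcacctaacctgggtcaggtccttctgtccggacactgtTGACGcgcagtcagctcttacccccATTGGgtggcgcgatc
B2m: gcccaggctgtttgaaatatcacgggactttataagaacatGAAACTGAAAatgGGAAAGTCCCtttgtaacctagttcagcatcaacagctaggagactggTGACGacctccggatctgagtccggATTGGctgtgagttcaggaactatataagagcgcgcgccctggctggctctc

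H2-K1 and B2m held the same kinds of motif, with the NF-kB and interferon elements in opposite order. In H2-K1, from the 5′ end, an NF-kB motif (the first capitals, from 111 bases before the start) came ahead of the shorter interferon element, a partial cyclic AMP response element (TGACG) and an NF-Y box (CCAAT, here on the other strand). In B2m an interferon-stimulated response element (the first capitals) came first, then an NF-kB motif of another form (the second) on the other strand, TGACG and the NF-Y box. TGACG and the NF-Y box are bound by partners of Nlrc5. H2-D1 held the NF-kB motif and the interferon element with the same spacing as H2-K1, in 30 bases that were identical at 29 positions (H2-K1 chr17:34000429-34000458, minus strand, and H2-D1 chr17:35262923-35262952, plus strand, upstream of the RefSeq start but within the first exon of a longer Gencode transcript).
H2-K1 block: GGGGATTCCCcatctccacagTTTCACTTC
H2-D1 block: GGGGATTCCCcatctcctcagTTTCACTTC

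Few promoters hold some of these motifs and many hold the others. The NF-kB motif of H2-K1 and H2-D1 occurred in 0.107% of 32851 promoters. The form found in B2m occurred in 0.411%, and the longer interferon element in 3.44%, each in B2m alone among the 8 genes. The shorter GAANNGAAA, which is not contained in the longer one, occurred in 7.52% of promoters, H2-K1 and H2-D1 among them. The NF-Y box was in 37.4% of promoters and in 6 of the 8 genes (B2m, Tapbp, H2-K1, H2-D1, Psmb9 and Tap1). TGACG was in 20.8% and in 5 of the 8 (B2m, H2-K1, H2-D1, Psmb9 and Tap1), and the full element TGACGTCA, which contains it, in 1.79% and in none of them. The gamma-activated site core TTCNNNGAA was in 8.30% and in Psmb8 alone. Matches describe letters in these windows and no binding was measured.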

How the data were processed

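RNA was sequenced after poly(A) selection and an unstranded TruSeq V2 preparation with 50-base reads, paired per the methods and not stated in the labels. Per the methods and the submitters' processing notes, adapters were removed with CutAdapt, reads were aligned with TopHat to GRCm38.p3 and protein coding genes, the 3 read sets of a condition were merged, and the authors deposited gene FPKM from CuffDiff with its interval bounds, for 21966 genes. The 7 genes with a status other than OK were left out. Symbols matched 21734 identifiers. The treated rows were taken as PID+. Depth per sample is unknown. Reads were estimated as FPKM times transcript length less 190 bases (best of 31 corrections), divided by the value of 1 read, fitted per condition (1.38 times as large in PID+ as in PID-), which left 92.4% (PID+, 460 genes) and 94.5% (PID-, 417 genes) of low values of single-transcript genes within 0.1 of a whole number, against 20% without steps. Genes and lists were chosen with earlier results of these data known. Positions and transcripts came from Gencode M21 (GRCm38). Named were all class I genes and, of each list that reached an FPKM of 2, 2-fold changed genes at that level, the most abundant gene and those whose role is needed. Alternatives were a pseudocount of 0.1, equal sums, upper quartiles or Gapdh, chromosome medians subtracted, a mean FPKM of at least 5, 3-fold and intervals apart. Calculations were tested on simulated data. Python 3.11.15, numpy 2.4.6, pandas 2.3.3 and matplotlib 3.10.9 were used.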

Additional observations from a re-analysis of the deposited data

How the results depend on the processing

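The signs of H2-D1, B2m, Tap1, Tap2, Psmb10 and Nlrc5 were the same under a pseudocount of 0.1, equal sums, equal upper quartiles, equal Gapdh and chromosome medians subtracted. H2-K1, Psmb8 and Psmb9 turned negative with equal Gapdh, and Tapbp positive with chromosome medians subtracted. The median log2 change of the class I genes turned from 0.11 to -0.27 with equal Gapdh, which shifted all genes, and to -0.039 with a minimum FPKM of 2 in either condition (added after the data were seen). It lay between 0.06 and 0.20 under the other alternatives. The number of class I genes 2-fold higher went from 1 to 0 with a mean FPKM of at least 5, with that minimum of 2, at 3-fold and with intervals apart. The number 2-fold lower went from 1 to 2 with equal Gapdh and to 0 with a mean FPKM of at least 5, at 3-fold and with intervals apart. The filters remove Nlrc5 or Tap2 by their construction, and a mean FPKM of at least 5 gives no value for Tap2, Psmb8, Psmb9 and Nlrc5. With a pseudocount of 0.1, the log2 ratio to the constitutive subunit was -6.70 in PID+ and -6.54 in PID- cells for Psmb8, -7.17 in both for Psmb9, and -4.36 and -3.60 for Psmb10. No paired analysis was possible because the table holds 1 pooled value per condition, and for the same reason no sample could be left out. CuffDiff's intervals rest on its error model and not on the spread between mice, and moves under 0.1 on the log2 scale were counted as no change.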

Other observations

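Regulators outside the interferon pathway that are known to act on class I genes were listed as well. Of 7 NF-kB genes, 0 were 2-fold changed, beside 6.14% higher and 7.05% lower of all genes at an FPKM of 2 in either condition. Their median log2 change was 0.09. With Gapdh set equal the median was -0.50 and 1 gene, Nfkbia, was 2-fold lower (-1.34), beside 12.3% of all 21959 genes. Tnfaip3 had the highest FPKM of these in PID+ cells (44.0) and Rela in PID- cells (40.05). Nfkbia, the inhibitor of NF-kB, had 16.9 in PID+ and 28.7 in PID- cells. The Polycomb genes Ezh2, Eed and Suz12, whose complex is known to silence antigen presentation genes in some tumors, had a median log2 change of 0.52, which was -0.07 with Gapdh set equal. Ezh2 had 60.5 (20.1 to 101) in PID+ and 32.8 (10.5 to 55.1) in PID- cells, and these intervals overlapped.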
